A study of Mus musculus with 28 samples.

Results

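The liver breaks amino acids down with enzymes that hepatocytes make in large amounts, and 42 of their genes are described here along the liver lobule, out of 33856 genes counted. They were chosen by name as enzymes of amino acid breakdown, with earlier results of these data known. The lobule is the repeating unit of liver tissue, which blood enters at the portal triads and leaves by a central vein. The assay was MARS-seq, a plate-based single-cell method that reads the 3' ends of mRNAs and gives each molecule its own barcode, the unique molecular identifier (UMI). The main material was 4621 wells, each holding a pair of attached cells, a hepatocyte and a CD31+ (endothelial) cell, from 17 libraries of 3 mice, 1 aged 6 weeks and 2 aged 7 weeks. A second table held 3720 wells of single non-parenchymal liver cells, taken as 11 libraries from 2 further mice (3 and 4 months old). All mice were C57BL/6 males, kept on a reversed light cycle, fasted for 2 hours from the morning, and anaesthetized with ketamine and xylazine, and the livers were dissociated with collagenase. The pairs stand only for hepatocytes that kept an attached cell through dissociation and sorting, and the RNA of both cells was read together.

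Breakdown of many amino acids starts with removal of the amino group, by transaminases, dehydratases or lyases. For others, such as tryptophan and cysteine, it can start with an oxidation. The routes then lead each carbon skeleton to glucose, ketone bodies or other products. Oxygen, hormones and nutrients change as blood flows from portal triad to central vein, and many hepatocyte genes are graded along that path. Portal hepatocytes are known for urea synthesis and for making glucose from amino acids, and central hepatocytes for glutamine synthesis and drug metabolism.

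Pairs were placed between the ends of the lobule by 3 genes that are not among the 42, the central genes Cyp2e1 and Cyp2c29 against the portal gene Cyp2f2. A pair needed at least 1000 gene UMIs and 10 UMIs of these genes, which kept 4574 pairs. They were cut into 9 layers of equal size, from layer 1 (central end) to layer 9 (portal end). Layers 7 to 9 are called periportal (1524 pairs, 19047048 gene UMIs, median 10459 in a pair) and layers 1 to 3 pericentral (1526 pairs, 18727700 gene UMIs, median 10155). A level is the number of UMIs per 1000000 gene UMIs, summed over the pairs of a layer or zone. Genes that took no part in the placement followed it: the level of Oat, the central ornithine aminotransferase gene, was 30.6 periportal and 786 pericentral, and that of Glul, central glutamine synthetase, 104 and 599. Within the central layers the order was poor: Glul had 1100.2 in layer 1, 362 in layer 2, 390 in layer 3 and 537 in layer 4. Layer 4 also held the deepest pairs (median 13338.5 gene UMIs), and 1382 pairs held no Cyp2f2 UMI. The part of either in that order was not tested.

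Well names map no well to a library or a mouse, so all pairs count as 1 sample, no difference was tested and no p-value was computed. Intervals are at 95% and cover counting error only: exact Poisson for levels, exact conditional binomial for ratios. A gene is called different between the zones where its levels differ at least 1.5-fold. Well numbers were also split into 17 plate-sized blocks, 16 of them with at least 30 kept pairs. Their numbers, 1 to 16 and 41, equal those in the library titles, but no source says that blocks are libraries, and no block was given to a mouse. Markers checked the labels. Both cells were present in both zones: hepatocyte markers were abundant, and the 7 endothelial markers summed to a level of 383 periportal and 327 pericentral. Markers of other cells had fewer UMIs than the 7296 periportal and 6131 pericentral UMIs of the endothelial list. The 6 stellate cell markers summed to 875 UMIs periportal and 1022 pericentral (log2 ratio -0.25). The 8 Kupffer cell markers summed to 160 UMIs periportal and 118 pericentral. Of these 8, 6 were higher periportal, while C1qb went the other way (25 and 47) and Csf1r had 8 UMIs in both zones. The 6 cholangiocyte markers summed to 323 and 54, nearly all from Sox9 (200 and 40) and Spp1 (122 and 14), while Krt19, Krt7 and Cldn7 had 0 in both.

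The 42 genes split into few steep gradients and many shallow ones. Together they made 2.06% of gene UMIs in each zone. All 42 reached the minimum for a comparison, 30 UMIs summed over the zones. Of them 8 were called higher in the periportal zone: Sds, Hal, Sdsl, Gldc, Amdhd1, Uroc1, Ftcd and Got1. Among all genes with that minimum 4.36% were called in that direction, and 1.94% of genes with at least 300 UMIs. Another 3 were called higher in the pericentral zone, Csad, Prodh and Hpd, against 8.22% of all genes and 4.92% of those with at least 300 UMIs. The other 31 differed less than 1.5-fold. Got1 fell below the limit with zones taken within blocks (log2 ratio 0.57), and Got1 (0.58) and Hpd (-0.56) with pairs split at the median score. The median log2 ratio, periportal over pericentral, was -0.03 over the 42 genes and -0.10 over all genes with the minimum. Just inside the limit of the calls lay Got1 (log2 ratio 0.72) and Hpd (-0.70), and just outside it Cdo1 (-0.56) and Aldh4a1 (-0.53).

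**Figure D1:**
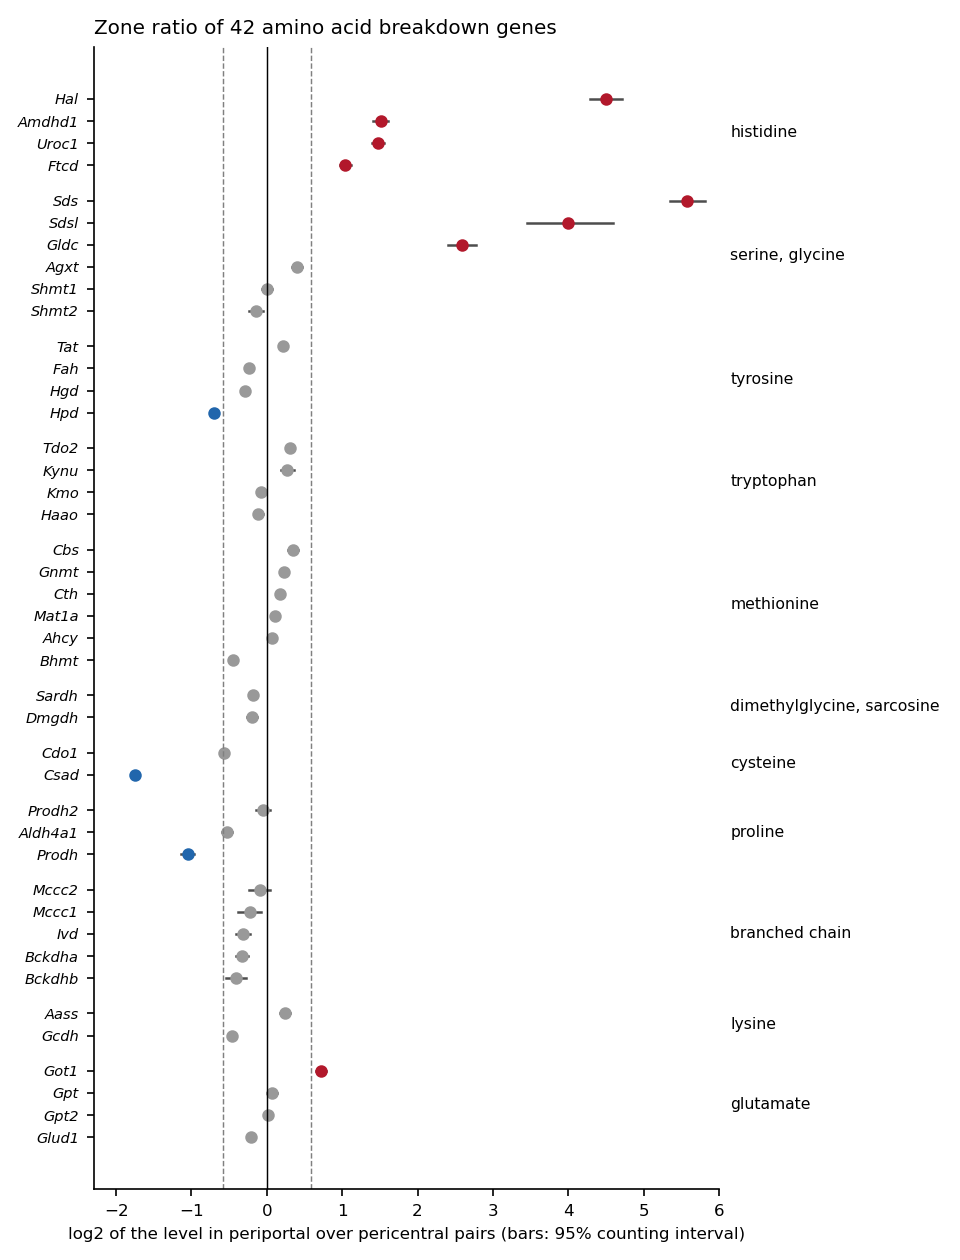
Log2 ratio of the periportal over the pericentral level for each of the 42 genes, grouped by route (points; bars are 95% counting intervals; dashed lines mark 1.5-fold). Red points are the 8 genes called higher periportal, blue points the 3 called higher pericentral; Sds stands at 5.58 and Csad at -1.75.

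Histidine is broken down in 4 steps, each with its own enzyme: Hal removes ammonia to give urocanate, Uroc1 hydrates urocanate, Amdhd1 opens the ring, and Ftcd passes the formimino group to folate. Histidine was the only route of the 11 here in which every gene was called, all 4 periportal. Because the 4 genes moved together, the 250 bases before the transcription start of each are printed, from RefSeq on the mouse build GRCm38.p6, 5' to 3' on the strand of the gene. Beside them stands Csad, the steepest gene in the opposite direction (the first of its 2 listed starts). Capitals mark the letters of 6 motifs searched on both strands: TATAAA (the TATA box), CTTTGAT (TCF/LEF factors), TGACGTCA (cyclic AMP response element), TTGCNNAA (C/EBP), TGTTTAC (forkhead factors) and CAAAGTCCA (HNF4).
Hal (chr10:93488518-93488767, plus strand): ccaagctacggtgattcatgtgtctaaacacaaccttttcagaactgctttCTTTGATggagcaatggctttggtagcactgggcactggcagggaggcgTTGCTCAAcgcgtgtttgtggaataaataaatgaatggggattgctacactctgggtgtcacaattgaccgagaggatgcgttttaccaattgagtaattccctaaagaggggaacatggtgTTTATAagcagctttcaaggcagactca
Uroc1 (chr6:90333039-90333288, plus strand): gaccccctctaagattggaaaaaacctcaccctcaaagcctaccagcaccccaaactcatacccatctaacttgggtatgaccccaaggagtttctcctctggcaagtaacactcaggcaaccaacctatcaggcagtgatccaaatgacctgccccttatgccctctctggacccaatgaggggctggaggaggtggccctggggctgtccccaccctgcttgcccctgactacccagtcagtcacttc
Amdhd1 (chr10:93540034-93540283, minus strand): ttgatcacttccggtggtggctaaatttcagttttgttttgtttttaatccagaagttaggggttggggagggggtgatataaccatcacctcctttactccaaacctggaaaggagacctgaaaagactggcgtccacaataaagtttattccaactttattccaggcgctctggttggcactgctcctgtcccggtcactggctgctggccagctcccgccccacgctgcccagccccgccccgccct
Ftcd (chr10:76575398-76575647, plus strand): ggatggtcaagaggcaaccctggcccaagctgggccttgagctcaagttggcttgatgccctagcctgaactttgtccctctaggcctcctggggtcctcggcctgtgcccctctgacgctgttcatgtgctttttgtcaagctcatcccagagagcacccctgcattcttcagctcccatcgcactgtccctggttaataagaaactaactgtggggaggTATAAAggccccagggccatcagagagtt
Csad (chr15:102205053-102205302, minus strand): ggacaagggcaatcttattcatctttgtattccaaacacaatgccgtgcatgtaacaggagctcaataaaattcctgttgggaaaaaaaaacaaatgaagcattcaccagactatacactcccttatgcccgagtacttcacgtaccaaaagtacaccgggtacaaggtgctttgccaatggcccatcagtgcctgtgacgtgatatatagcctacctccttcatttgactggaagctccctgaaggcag

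Capitals appear in Hal and Ftcd. The TATA box begins 28 bases before the start in Hal, read on the opposite strand as TTTATA, and 29 bases before it in Ftcd. Hal also holds CTTTGAT, beginning at 199 bases, and the C/EBP letters TTGCTCAA, at 150 bases. Over the 27025 genes with an entry, the TATA letters occurred in 12.97% of such 250-base windows, the C/EBP letters in 9.55%, CTTTGAT in 3.23%, the forkhead letters in 3.09%, the cyclic AMP element in 1.62% and the HNF4 letters in 0.381%. Of the 42 genes 35 had an entry, and 4 of these held the TATA letters, 5 the C/EBP letters and 2 CTTTGAT, while none held the other 3 motifs. These matches describe the letters in the window and mark no binding site. Hal and Amdhd1 are neighbours on chromosome 10 with no coding gene between them.

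Hal, the entry step, had the steepest gradient of the 4. Its level was 234 in periportal pairs (interval 227 to 241, 4452 UMIs), against 10.3 in pericentral pairs (8.90 to 11.9, 193 UMIs). The log2 ratio was 4.50 (interval 4.30 to 4.72), a 22.7-fold difference. From layer 1 to layer 9 its levels were 6.44, 9.76, 13.9, 13.5, 27.2, 71.0, 149, 231 and 309, so most of the climb lay between layers 5 and 9.

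The 3 later steps were shallower than Hal and close to each other. Amdhd1 had a level of 161 periportal and 56.5 pericentral (log2 ratio 1.51, interval 1.41 to 1.61). Uroc1 had 269 and 96.8 (1.48, 1.40 to 1.56). Ftcd had 279 and 135 (1.04, 0.97 to 1.11). Their lowest layer was layer 1 and their highest layer 9 for all 3: Uroc1 had 62.5 and 297, Amdhd1 32.7 and 174, and Ftcd 102 and 299.6. The zones thus differed 2.06-fold to 2.85-fold for the later enzymes and 22.7-fold for the entry enzyme.

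Serine dehydratase, Sds, which turns serine to pyruvate and ammonia, had the largest ratio of the 42 genes. Its level was 385 in periportal pairs (377 to 394, 7342 UMIs), against 8.06 in pericentral pairs (6.83 to 9.46, 151 UMIs), a 47.8-fold difference (log2 ratio 5.58, interval 5.35 to 5.82). Its profile was more compressed to the portal end than that of Hal. Levels from layer 1 to layer 9 were 7.14, 8.92, 8.10, 7.24, 12.2, 23.6, 102, 380.2 and 635. Layers 8 and 9 held 86.7% of all Sds UMIs and 66.7% of all Hal UMIs. Within layer 9, cut again in 3 along the same order, Sds had levels of 590.2, 623 and 686 toward the portal end, and Hal 321, 283 and 323. The sums of the cholangiocyte markers and of the Kupffer cell markers were also higher periportal, as given above. Without the pairs that held at least 2 UMIs of these markers the log2 ratio was 5.53 for Sds and 4.54 for Hal.

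Sdsl, a gene related to Sds by sequence and its neighbour on chromosome 5, was measured with few UMIs but in the same direction. It had 471 UMIs periportal and 29 pericentral, levels of 24.7 and 1.55 (log2 ratio 4.0, interval 3.46 to 4.59). Its highest layer was layer 8 (27.5), and layer 9 had 25.9, with overlapping intervals. How reads that fit both genes were counted is not given in the sources used here.

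Gldc, the decarboxylase of the glycine cleavage system, was 6.00-fold higher periportal, with levels of 87.7 and 14.6 (log2 ratio 2.58, interval 2.40 to 2.77). It climbed more evenly than Sds, from 6.09 in layer 1 and 27.4 in layer 5 to 107 in layer 9. The remaining serine and glycine genes were not called. Agxt, which moves the amino group of alanine to glyoxylate and yields glycine, had levels of 233 and 177 (log2 ratio 0.40, interval 0.33 to 0.46). Its ratio was above 0 in all 16 blocks. The serine hydroxymethyltransferase genes, which interconvert serine and glycine, differed little between the zones. Shmt1 (cytosolic) had 171 in both zones (interval of the ratio -0.07 to 0.07). Shmt2 (mitochondrial) had 96.8 periportal and 107 pericentral (log2 ratio -0.15, interval -0.24 to -0.06).

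**Figure D2:**
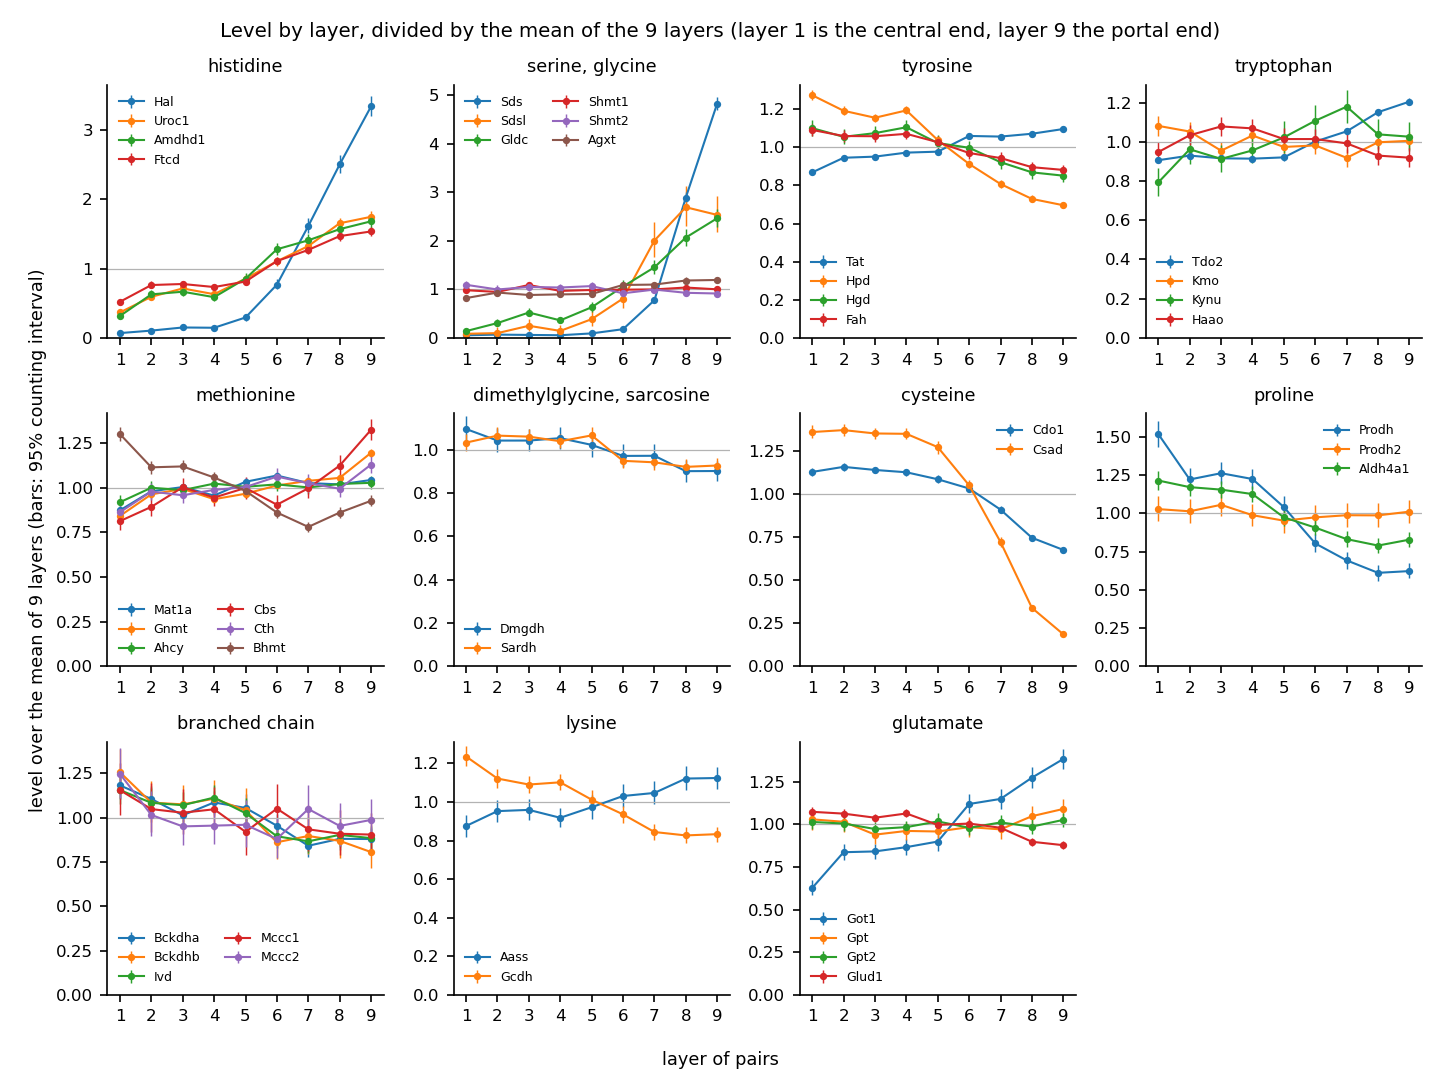
Level of each gene in 9 layers of pairs, divided by its mean over the layers, by route (x axis: layer, 1 central to 9 portal; bars: 95% counting intervals). Sds, Hal, Sdsl and Gldc climb at the portal end, Csad declines there, and most other genes stay within 1.5-fold of their mean.

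Cysteine breakdown had the steepest pericentral gene. Cdo1 oxidizes cysteine to cysteine sulfinate, and Csad decarboxylates that product on the way to taurine. Csad had a level of 261 in periportal pairs (254 to 269, 4976 UMIs), against 879.7 in pericentral pairs (866 to 893, 16474 UMIs), a log2 ratio of -1.75 (interval -1.80 to -1.71), or 3.37-fold higher pericentral. It was flat over the central part of the lobule and declined steeply toward the portal end, with 879, 887, 874, 873, 823, 679, 467, 219.6 and 120.5 from layer 1 to layer 9. Cdo1 had the same shape but was shallower. It had levels of 1227 and 1815 (log2 ratio -0.56, interval -0.59 to -0.54), and went down from 1840.1 in layer 2 to 1074 in layer 9.

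Prodh, the mitochondrial enzyme that opens proline breakdown, was 2.07-fold higher pericentral. Its levels were 93.7 and 194 (log2 ratio -1.05, interval -1.13 to -0.97), with 222 in layer 1 and 91.0 in layer 9. Aldh4a1, the next enzyme of proline breakdown, had 169 and 243 (log2 ratio -0.53, interval -0.59 to -0.46). Prodh2, which acts on hydroxyproline, was level, with 102 and 106 (-0.05, interval -0.14 to 0.04).

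Among the 4 genes of tyrosine breakdown, the first step went one way and the later steps the other. Tat, the tyrosine aminotransferase, had levels of 3401 periportal and 2921 pericentral (log2 ratio 0.22, interval 0.20 to 0.24). Hpd, the next enzyme, had 1010.2 and 1638 (log2 ratio -0.70, interval -0.72 to -0.67) and went down from 1734 in layer 1 to 948 in layer 9. Hgd and Fah, which act after it, had log2 ratios of -0.29 and -0.24. All 4 intervals, which cover counting error only, were on their own side of 0. With zones taken within blocks Tat had 0.14, below its interval, and a ratio above 0 in 15 of 16 blocks. Hpd, Hgd and Fah had ratios below 0 in all 16.

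Tryptophan breakdown differed little between the zones. Tdo2, the dioxygenase that opens the ring, had levels of 2623 periportal and 2111 pericentral (log2 ratio 0.31, interval 0.29 to 0.33), with 2086 in layer 1 and 2773 in layer 9. Kynu, kynureninase, had 118 and 97.8 (log2 ratio 0.27) and was highest in layer 7 (129). Haao, an oxygenase further down, had 229 and 248 (log2 ratio -0.12). Kmo, the oxygenase that makes the substrate of Kynu, was nearest to level, with 273 and 286 (-0.07, interval -0.13 to -0.02), and had 0.03 with TMM scaling, a scaling of the zone totals that is set by the bulk of all genes.

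Of the 6 methionine genes Cbs, Gnmt, Cth and Mat1a had a weak portal lean, Ahcy changed sides with the way zones were taken, and Bhmt was lower in the periportal zone. Mat1a makes S-adenosylmethionine, Gnmt uses it to methylate glycine, Ahcy splits the product, and Cbs and Cth carry the sulfur on to cysteine. Cbs had levels of 230.3 periportal and 181 pericentral (log2 ratio 0.35, interval 0.28 to 0.41), with 162 in layer 1 and 264 in layer 9. Gnmt had 1511 and 1286 (0.23), Cth 286 and 254 (0.17), and Mat1a 2002 and 1858 (0.11). Ahcy had 462 and 441 (0.07, interval 0.02 to 0.11), and -0.05 with zones taken within blocks. Bhmt, which returns homocysteine to methionine with betaine, had 488 and 666 (log2 ratio -0.45, interval -0.49 to -0.41). Dmgdh and Sardh, which oxidize the dimethylglycine and sarcosine formed beside these steps, had ratios below 0, as Bhmt did. Dmgdh had 206 and 237 (log2 ratio -0.20, interval -0.26 to -0.13), and Sardh 449 and 509 (-0.18, interval -0.22 to -0.14).

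The 5 genes for branched-chain amino acids all had log2 ratios below 0 and none was called. They encode the 2 parts of the branched-chain ketoacid decarboxylase (Bckdha, -0.33, and Bckdhb, -0.41), isovaleryl-CoA dehydrogenase (Ivd, -0.32) and the subunits of methylcrotonyl-CoA carboxylase (Mccc1, -0.23, and Mccc2, -0.09, interval -0.23 to 0.05). TMM scaling raised every log2 ratio by 0.10, and with it Mccc2 came to 0.00 while the other 4 stayed below 0. Bckdhb, the largest of these ratios in size, had levels of 46.4 periportal and 61.6 pericentral (interval of the ratio -0.54 to -0.28), and Mccc2, the smallest, 42.1 and 44.9. All 5 were highest in layer 1. A ratio below 0 was common: 37.9% of all genes with at least 300 UMIs had an interval wholly below 0, and 11.8% one wholly above.

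In lysine breakdown, Aass, the first enzyme, had levels of 202 periportal and 172 pericentral (log2 ratio 0.24). The summed endothelial markers had a log2 ratio of 0.23 between the same zones. Aass had a level of 282 in single wells with endothelial markers, from other and older mice, against 184 over pairs. The part of the attached endothelial cell in the Aass ratio was not tested. Gcdh, glutaryl-CoA dehydrogenase, had levels of 259 and 356 (-0.46, interval -0.51 to -0.40). Among the enzymes that pass amino groups through glutamate, Got1, the cytosolic aspartate aminotransferase, was 1.65-fold higher periportal over all pairs, and below the limit of a call within blocks (log2 ratio 0.57). It had levels of 288 and 175 (log2 ratio 0.72, interval 0.66 to 0.78), with 142 in layer 1 and 313 in layer 9. The alanine aminotransferase genes were level, Gpt with 188 and 179.8 and Gpt2 with 352 and 347 (log2 ratio 0.02, interval -0.03 to 0.07). Glud1, glutamate dehydrogenase, had 895 and 1032 (log2 ratio -0.21).

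No gene of the 42 was mid-lobular by the rule used, a level in layers 4 to 6 above both zones with separate intervals, which 0.236% of genes with at least 300 UMIs met. The highest single layer was among layers 1 to 3 for 20 genes, among 4 to 6 for 3 (Hgd, Mat1a and Sardh) and among 7 to 9 for 19. Of all genes with at least 300 UMIs, 48.8% were highest in layers 1 to 3, 29.1% in layers 4 to 6 and 22.2% in layers 7 to 9. The 3 became 9 when 2000 UMIs were drawn from every pair, and 1 when pairs of the same score were kept in well order.

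A list of 68 other genes of amino acid metabolism was set beside the 42. Of the 63 that reached the minimum, 5 were called periportal, against 4.36% of all genes, and 8 pericentral, against 8.22%. The interval of the ratio was above 0 for 10 of the 63 and below 0 for 34, and among the 42 genes for 18 and 19. Among those with at least 100 UMIs over both zones the largest periportal ratios belonged to Agxt2l1, a phospholyase of phosphoethanolamine (levels 236 and 15.2, log2 ratio 3.95), Gls2, liver glutaminase (403 and 36.6, 3.46), and Aspg, an asparaginase (95.1 and 35.5, 1.42). With the same limit of 100 UMIs, the largest pericentral ratios belonged to Oat (log2 ratio -4.68) and Hsd17b10, which acts in isoleucine breakdown (172 and 297, -0.79).

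The steep gradients kept their direction within the blocks. Zones were taken within each of the 16 blocks, and a block counted for a gene where it held 10 or more of its UMIs. Each of the 11 called genes leaned the same way as over all pairs in every such block, and 12 of the 31 other genes did. The 11 were called from these same pairs, and the share of all genes with 1 direction in every block was not computed. Sds had levels from 197 to 594 in the periportal zones of the blocks (median 338), against 0 to 13.7 in the pericentral zones (median 7.78). Hal had 141 to 593 (median 213), against 2.27 to 38.7 (median 9.40). For Csad the periportal zones had 106 to 529 (median 271), against 607 to 1029.6 (median 893) in the pericentral zones. The zones did not overlap for 7 genes with the periportal side higher, the 4 histidine genes, Sds, Sdsl and Gldc, and for Csad with the pericentral side higher. Among all genes with at least 300 UMIs, 0.623% and 1.14% were separated in that way. Prodh, Hpd and Got1 overlapped: Got1 had 147 to 366 periportal and 95.03 to 289 pericentral.

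**Figure D3:**
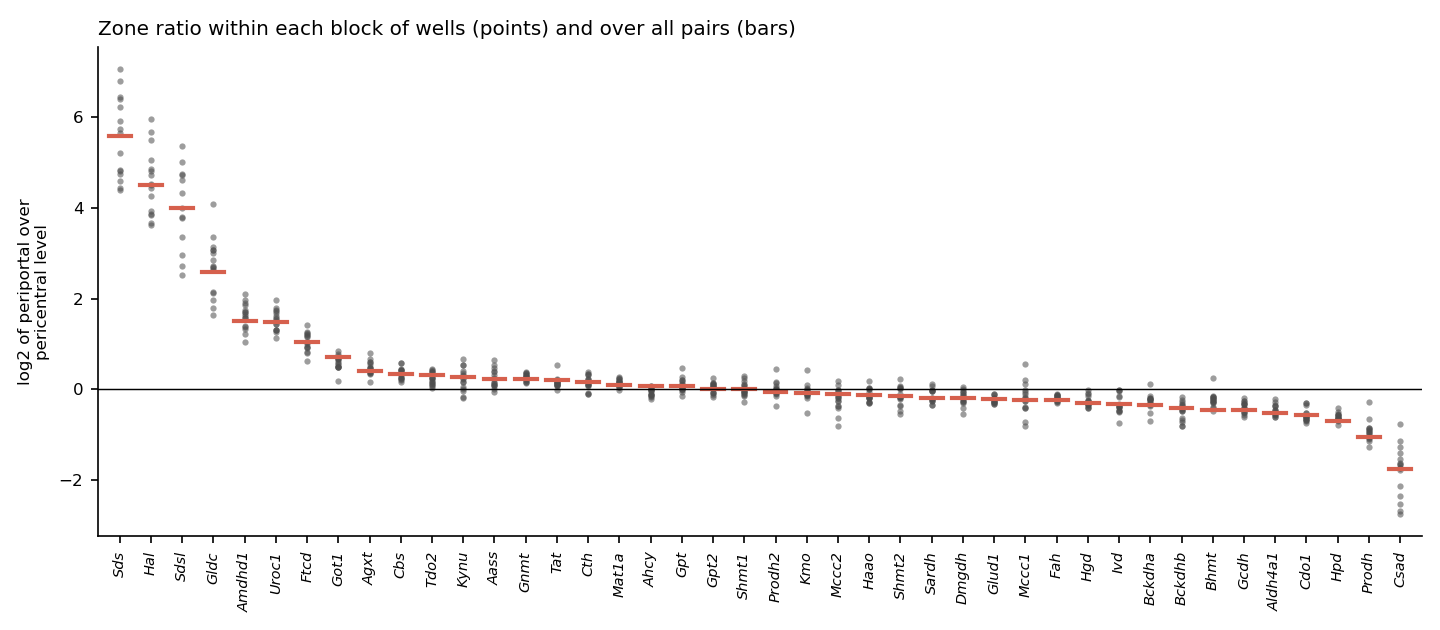
Log2 ratio of periportal over pericentral level for each gene within each block of wells (points; zones taken within the block, at least 10 UMIs of the gene) and over all pairs (bars). The points of Sds run from 4.40 to 7.05 and those of Csad from -2.75 to -0.77, while points of most genes between them lie close to 0. A block with no UMI of the gene in 1 zone has no point: 1 block for Sds and 3 for Sdsl.

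Bhmt, Got1 and Ahcy differed between blocks in a way that touches their ratios. Bhmt had levels of 618 to 858 over all pairs of blocks 10 to 16, against 339 to 442 in blocks 3 to 9 and 41, and 2009 in block 2. Got1 went the other way, with 154 to 192 in blocks 10 to 16, against 247 to 297 in blocks 3 to 9 and 41, and 107 in block 2. Periportal pairs were 18.6% to 29.8% of blocks 10 to 16, and 34.6% to 44.2% of blocks 3 to 9 and 41. With zones taken within blocks the log2 ratio was -0.22 for Bhmt (pooled -0.45) and 0.57 for Got1 (pooled 0.72), below the limit of a call. Ahcy had -0.05 in place of 0.07, and a ratio above 0 in 5 of 16 blocks. Blocks 10 to 16 also had lower Ahcy (346 to 403, against 427 to 593) and lower Tat (2205 to 3163, against 3187 to 4178). These block groups were made after the values were seen, and their part in the pooled ratios was not tested beyond the values within blocks.

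Tdo2 stood out in 1 block. Its level was 5605 over the 296 pairs of block 7, against 903 to 2410 in the other 15 blocks. The difference was spread over the pairs: the median pair of block 7 had 5843 and the 10th percentile 3847, against a 90th percentile of 2958 in pairs of all other blocks. Of the 4989 genes with at least 1000 UMIs, 4 were at least 2-fold above every other block there, Tdo2 among them. That number was not unusual: it was 0 to 7 in the other blocks apart from block 2. In block 7 Tdo2 had no gradient, with 5749 in layer 1 and 5549 in layer 9, while the other blocks together had 1955 and 2574. Block 2 stood apart in many more genes. It held 66 pairs, and 41 genes, Bhmt included, were at least 2-fold above every other block. Another 204, Tdo2 included, were at least 2-fold below every other block.

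**Figure D4:**
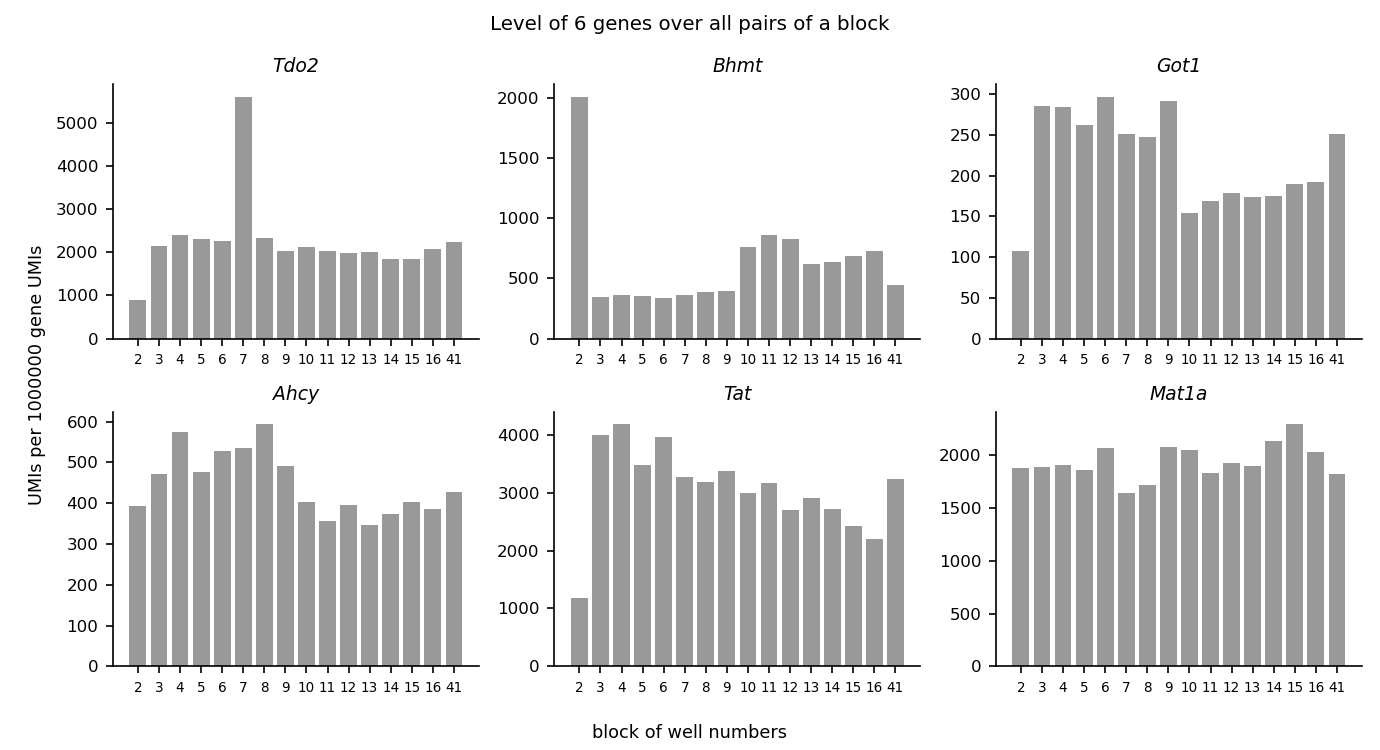
Level over all kept pairs of each block with at least 30 pairs (bars; y axis: UMIs per 1000000 gene UMIs, x axis: block number) for Tdo2, Bhmt, Got1, Ahcy, Tat and Mat1a. Tdo2 is high in block 7, Bhmt in block 2 and in blocks 10 to 16, Got1 is low in those, and Mat1a varies least.

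Pairs of the same layer varied more in some of these genes than in the median gene of like level. Each pair was thinned to 2000 UMIs, and the variance over the mean, which is 1 for counting noise alone, was set beside genes of a mean within 2-fold. In layer 9 Sds had 1.58, against a median of 1.08 over 284 such genes, and 62.4% of the 508 pairs held an Sds UMI. Within blocks the value was 1.51. Thinned to 5000 UMIs, Sds had a median of 3 UMIs in a pair, and 82.2% of pairs held at least 1. Hal, in the same layer, was close to counting noise, with 1.09 against 1.04. Csad had 1.27 in layer 9, against 1.02, where 20.3% of pairs held a UMI of it. In layer 1, where 82.7% did, it had 1.07 against 1.12. In layer 9 Bhmt had 2.01, against a median of 1.07 for genes of like level, and 1.31 within blocks. Tdo2 had 1.85, against 1.27, and 1.37 within blocks. Tat had 1.62, against 1.29, and 1.40 within blocks. The medians were not taken within blocks. No interval of the variance over the mean was computed. A layer pools wells that map to no mouse, and Sds still climbed within layer 9, as given above.

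The levels of these genes were also read in the wells of single non-parenchymal cells. Wells with at least 300 gene UMIs were used, 2692 of 3720. Hepatocyte RNA was present there: 9 genes of proteins secreted by hepatocytes, such as Alb and Ttr, had 5.32% to 9.75% of their level in pairs. Of the 42 genes, 24 had an interval that reached into that range, 3 (Tat, Cth and Csad) had one below it and 15 one above it. These counts depend on the range: below it lay 1 gene with wells of at least 1000 UMIs (range 3.63% to 7.98%) and 0 with the range of 5 cytochrome P450 genes (3.11% to 8.90%), and above it 14 and 16. Among all genes with at least 300 UMIs in pairs, 90.0% had an interval above the range of the secreted protein genes. Of the steep genes, Sds had 13.1% (interval 9.49% to 17.6%), Gldc 4.62% (1.498% to 10.8%) and Csad 4.16% (3.21% to 5.29%), and Hal had 18.1% (13.1% to 24.6%, 42 UMIs).

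The highest shares belonged to Aass (42.02%), Ivd (36.3%), Mccc1 (32.0%), Got1 (30.1%), Shmt2 (29.7%) and Glud1 (28.9%). Aass was unevenly spread. In 504 single wells with at least 2 endothelial marker UMIs it had 98 UMIs, a level of 282 (229 to 344). In 859 wells with at least 2 immune marker UMIs it had 11 UMIs, a level of 13.2 (6.58 to 23.6). Immune markers were those of Kupffer, T, NK and B cells. Wells of either kind held no UMI of the other list or of the stellate list. The level of Aass over pairs was 184, and the part of the attached endothelial cell in it and in its zone ratio was not tested. Glud1 had 337 (279 to 404) and 261 (228 to 298) in the same wells, with overlapping intervals, and Got1 51.9 and 74.3. The single cells came from other, older mice than the pairs, so cell type, age and animal cannot be told apart in these shares.

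**Figure D5:**
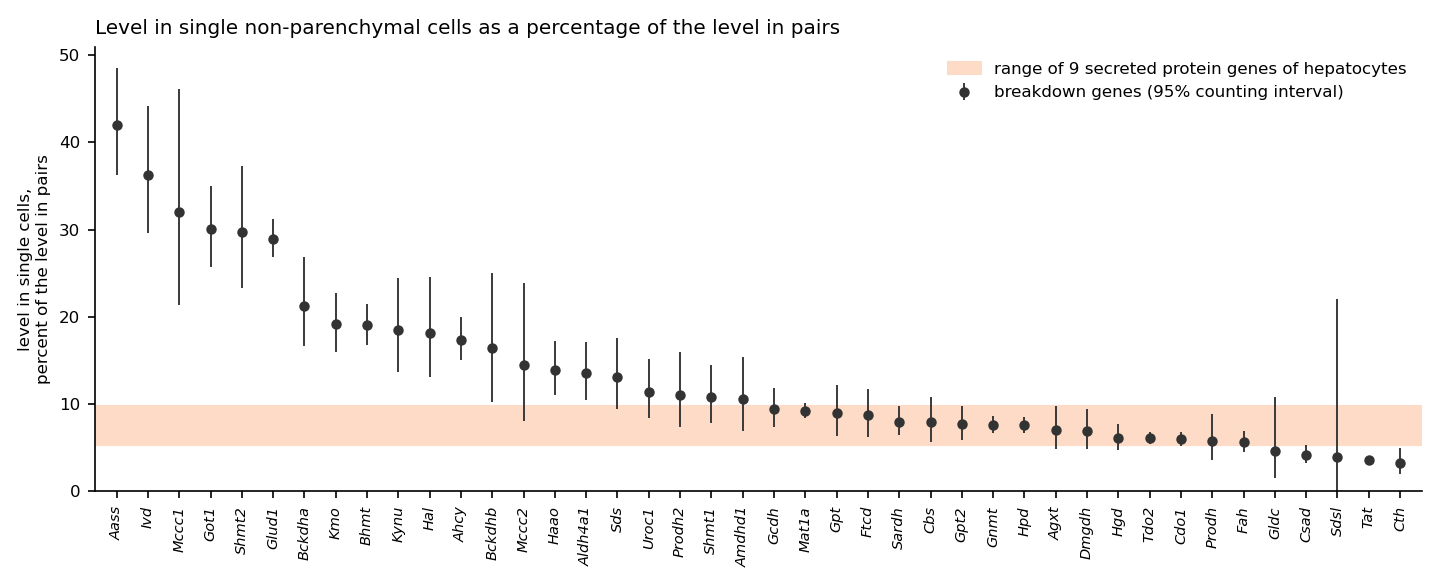
Level of each gene in single non-parenchymal wells as a percentage of its level in pairs (points; bars are 95% counting intervals), beside the range of 9 hepatocyte genes of secreted proteins (band, 5.32% to 9.75%). Aass is highest at 42.02%, and the intervals of 24 genes reach into the band.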

How the data were processed

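MARS-seq libraries were made from the 3' end of polyadenylated RNA, per the labels' protocols. Both deposited tables give counts, the whole number of UMIs of each gene symbol in each well, which the authors had not normalized. The submitters' processing notes name bcl2fastq 2.15.0.4 and the build mm9. Aligner and gene annotation: not given in the sources used here. Spike-in rows (92 of them, 0.715% of UMIs in pairs, 52.8% in single cells) were left out, and no doublet caller was run, since wells were sorted.

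The 42 genes, all gene lists and the alternatives were chosen with earlier results of these data known. The planned edgeR test on sums per mouse was replaced by levels and intervals, as planned for the case that wells map to no mouse. The placement score set the level of Cyp2f2 against the mean level of Cyp2e1 and Cyp2c29, each divided by its mean over pairs. Pairs of the same score were ordered by the levels of those genes. That tie rule, the background of genes with at least 300 UMIs, the groups of blocks, the 6 motifs and the limit set by secreted protein genes were chosen after values were seen. Every one of the 42 genes is named, with fuller values in each route for the largest ratios and the one nearest 0, and from the 68 other genes the 3 largest ratios in each direction with at least 100 UMIs, of which 1 is not reported here. The ratio and its interval were tested on simulated Poisson counts of known fold, the model that the interval assumes. Spread between pairs, blocks or mice and errors of placement were not simulated, so that test only checks the calculation. Python 3.11.15 with numpy 2.4.6, scipy 1.17.1 and pandas 2.3.3 was used, and edgeR 4.0.16 for TMM factors only.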

Additional observations from a re-analysis of the deposited data

How the results depend on the processing

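The 42 ratios were recomputed under 15 other settings and with each of the 17 blocks left out, 1344 values in all. Of these 1149 stayed within the counting interval of the reported ratio, 195 left it, and no called ratio changed sign. The 1149 include copies of the reported ratios: settings that changed only the minimum of UMIs for a gene could move neither a ratio nor a call. TMM and median-of-ratios scaling each moved every ratio by the same amount, and block 1 held only 8 kept pairs. The count of 1149 is therefore no measure of how stable the ratios are. Of the 11 called genes 9 were called in every one of the 15 settings. Hpd (-0.56) and Got1 (0.58) missed the limit with pairs split at the median score, and Got1 (0.57) with zones taken within blocks. Between layers 9 and 1 alone Cbs (0.70) was also called periportal and Bckdhb (-0.64) and Cdo1 (-0.74) pericentral, which made 5 pericentral genes, and Cdo1 was called in 3 settings. The median log2 ratio of the 42 genes was 0.071 with TMM factors, which raised every ratio by 0.10, and -0.04 to -0.01 with 1 block left out. Leaving out 1 block left 8 periportal and 3 to 4 pericentral genes, and both counts stood at 8 and 3 without block 7. Genes with their highest layer in the middle numbered 9 with thinned pairs and 1 with pairs of the same score in well order, an alternative chosen after seeing the data. With a broader list of landmark genes that number was 4, and 1 gene, Mat1a, had a level in layers 4 to 6 above both zones (2018 periportal, 2060 in the middle, 1753 pericentral). Without pairs that held 2 UMIs of Kupffer cell or cholangiocyte markers Sds had 5.53 and Hal 4.54. The variance over mean of Tdo2 depends on depth: thinned to 5000 UMIs it was 3.59 in layer 9. No paired analysis was possible because the well names map no well to a mouse.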
